A study of Mus musculus with 16 samples.

Results

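The antiviral type I interferon response was followed as a set of 43 genes in CD4 T cells of mice with and without a B cell lymphoma. The genes were taken by symbol from a list of known interferon-stimulated genes, all 43 were found among the 23479 genes of the count table, and all 43 passed the filter on low counts that left 18430 genes for testing. The question was how the level of these genes compares between the groups, and how far single mice set the group means. RNA sequencing was done on CD4 T cells that had been enriched from the spleen by negative selection with magnetic beads, so that the other cells were bound and removed. Every mouse was C57BL/6. The control group was 5 mice without a tumour, entered as day 0, and the other groups were 7 mice at day 7 and 4 mice at day 14 after a transplant of Eu-Myc lymphoma cells. Eu-Myc lymphoma is a mouse B cell tumour driven by Myc under an immunoglobulin heavy chain enhancer. The labels name no sham transplant in the control mice, so transplant and tumour cannot be told apart.

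Type I interferons bind the receptor formed by IFNAR1 and IFNAR2, which activates the kinases JAK1 and TYK2. Their signal leads STAT2 and IRF9 to form part of the complex ISGF3, which binds the interferon-stimulated response element (ISRE) in the promoters of its target genes. The targets include proteins that sense viral RNA and DNA, cut or sequester it, block viral assembly and trafficking, or limit the signal itself. T cells carry the receptor, and type I interferon is known to alter their survival and division.

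The libraries held 14493764 to 27340070 gene counts each, with the lowest depth in mice with lymphoma. Levels are given as CPM, the share of a library's counts that a gene takes, scaled by TMM, a method that corrects library sizes for differences in composition. CD4 T cell genes were high in every library: Cd4 stood at 781 to 1802 CPM and Cd3e at 762 to 1875 CPM. Of the CD8 T cell genes, Cd8a reached at most 3.03 CPM, while Cd8b1 stood at 5.44 to 16.5 CPM. Reads outside gene models made up 47.1% to 56.7% of a control library and up to 69.8% of a day 14 library. Control libraries 1 and 2 carried neutrophil transcripts, with a summed level of 799 and 2441 CPM over 11 marker genes. Day 14 library 4 reached 1397 CPM, nearly all of it from Mpo (1226 CPM) and Elane (146 CPM), while S100a8 was at 2.96 CPM there against 117 and 549 CPM in controls 1 and 2. The other 13 libraries had 1.78 to 53.6 CPM in sum. Macrophage and monocyte transcripts were high in the same libraries. Over 11 marker genes they summed to 413 and 983 CPM in controls 1 and 2 and 383 CPM in day 14 library 4. In the other 13 libraries they summed to 23.0 to 82.7 CPM. Mice of both sexes were present, since Y-linked transcripts were seen at a high level in controls 1 and 2, in libraries 6 and 7 of day 7 and in library 4 of day 14. Each library was taken as 1 mouse, and the p-values measure the spread between these mice. In RNA from a mixed population, fewer cells of a type and less RNA per cell cannot be told apart.

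The promoters of the set carry the sequence through which interferon is known to act, which is why some are shown here. RefSeq promoter windows (GRCm38.p6), from 250 bases before to 50 bases after the transcription start, were given for 30 of the 43 genes. The ISRE core was searched on both strands as GAAA, any 2 bases and GAAA again. It was present in 19 of these 30 genes (63.3%), against 3.99% of the 27025 genes with such windows. A longer form, the same core with CT added at its end, was present in 11 of 30 genes against 0.303%. A match is a stretch of letters and not a measured binding site. In the sequences below, read 5′ to 3′ on the strand of the gene, capitals mark the ISRE core, which reads TTTC, 2 bases and TTTC where it lies on the opposite strand. Isg15, Ifit1, Bst2 and Gbp3 were chosen after their values were seen, because the results turn on them, and the other 4 were taken by their level. They belong to the 6 most abundant genes with a core, of which Ddx58 and Trim30a are not printed. The stretch taken from each of those runs past the transcription start of its RefSeq window. The gene positions used for levels per length differ in places from these windows. By those positions the Gbp3 stretch also passes the start of its gene, at 142560026. The Slfn5 stretch lies inside its gene by the same positions, since that gene begins at 82951349.
Isg15: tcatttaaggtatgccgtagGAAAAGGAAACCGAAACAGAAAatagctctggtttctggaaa
Ifit1: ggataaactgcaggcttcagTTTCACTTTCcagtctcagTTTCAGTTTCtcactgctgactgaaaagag
Bst2: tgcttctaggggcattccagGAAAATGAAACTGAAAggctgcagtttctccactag
Gbp3: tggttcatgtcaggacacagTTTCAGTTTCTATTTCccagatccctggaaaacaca
Gbp7: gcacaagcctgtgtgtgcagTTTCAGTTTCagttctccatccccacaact
Igtp: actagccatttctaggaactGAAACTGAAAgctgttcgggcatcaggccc
Slfn5: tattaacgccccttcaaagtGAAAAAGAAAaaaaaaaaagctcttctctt
Slfn8: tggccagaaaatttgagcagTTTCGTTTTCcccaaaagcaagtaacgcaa

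The Isg15 stretch lies at chr4:156200855-156200916 on the minus strand and holds 3 overlapping cores, the first starting 78 bases before the transcription start. Ifit1 has 2 separate cores at chr19:34640765-34640833 on the plus strand, 104 bases before the start at the outermost. The 2 cores of Bst2 (chr8:71537567-71537622, minus strand) and the 2 of Gbp3 (chr3:142559979-142560034, plus strand) overlap each other in the same way, and the log2 changes of these genes at day 14 had opposite signs, as given further on. Single cores lie in Gbp7 (chr3:142530263-142530312, plus strand), Igtp (chr11:58199502-58199551, plus strand), Slfn5 (chr11:82951927-82951976, plus strand) and Slfn8 (chr11:83020829-83020878, minus strand). Ddx58 and Trim30a also hold a core. In Ddx58 it begins just after the start of transcription. Trim30a has 2 windows, with the core 36 bases before the start in the window that matches the gene's start here and just after the start in the other. Gbp3 has a further window, at chr3:142560106-142560405, that holds no core. A gene was counted as having a core if any of its windows held one. In control library 4, described further on, the median ratio to the other controls was 1.45 over the 19 genes with a core and 1.35 over the 11 without. In day 14 library 2 these medians were 1.81 and 1.79.

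Over the whole set, the range between mice within each group was wider than the difference between any group means. The mean log2(CPM + 1) of the 43 genes was 5.59, 5.45, 5.64, 6.16 and 5.62 in control libraries 1 to 5. At day 7 it was 5.59 at the lowest, 5.87 at the median and 6.06 at the highest. At day 14 it was 5.13, 6.22, 5.48 and 5.20 in libraries 1 to 4. Control library 4 and day 14 library 2 thus stood above every other library, day 14 libraries 1 and 4 below every other, and the 3 groups overlapped. The group means were 5.69 ± 0.27 (SD, n = 5) in controls, 5.83 ± 0.20 (n = 7) at day 7 and 5.51 ± 0.50 (n = 4) at day 14. Within a group, the coefficient of variation of a gene had a median over the set of 26% in controls, 17.6% at day 7 and 37.3% at day 14, so the day 7 mice were the most alike.

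**Figure D1:**
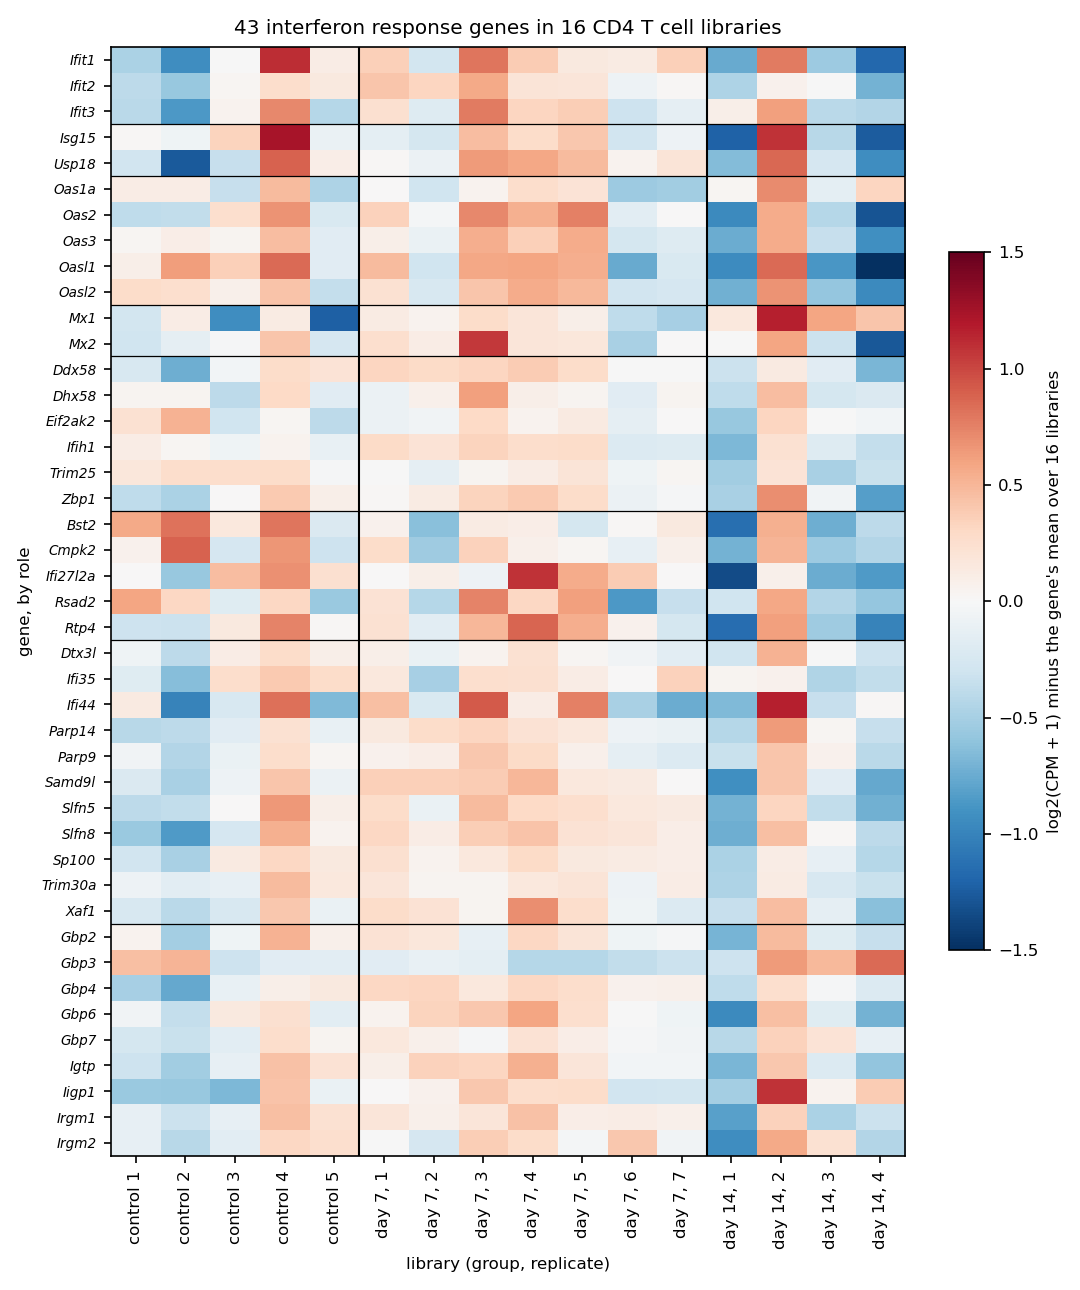
Level of each of the 43 genes (rows, grouped by role) in the 16 libraries (columns), as log2(CPM + 1) minus the mean of the gene over the 16 libraries, on a colour scale from -1.5 to 1.5. Control 4 and day 14 library 2 are red across nearly all rows, day 14 libraries 1 and 4 are mostly blue, and Gbp3 and Mx1 follow other patterns.

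**Figure D2:**
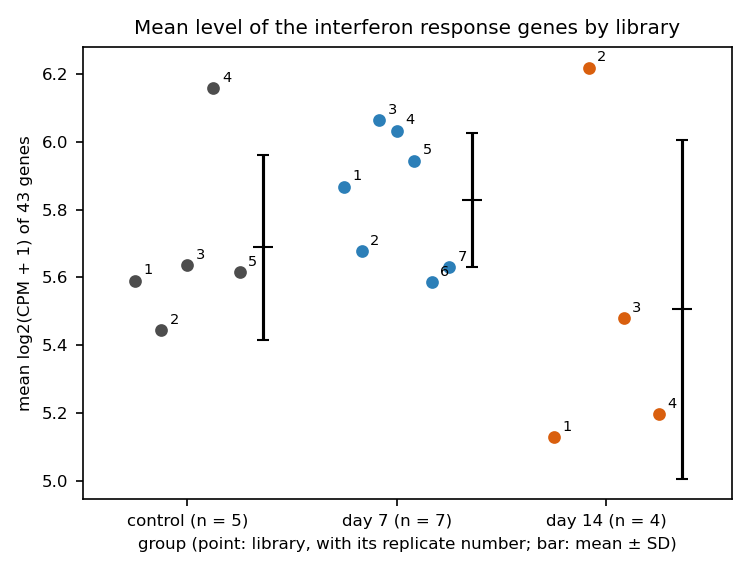
Mean log2(CPM + 1) of the 43 genes in each library (points, with replicate numbers) and mean ± SD of each group (bars). Control 4 at 6.16 and day 14 library 2 at 6.22 lie above the highest day 7 library at 6.06.

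None of the 43 genes passed in any of the 3 comparisons at an adjusted p of 0.05 with edgeR's quasi-likelihood test, adjusted over all 18430 genes. For day 7 against control, 0.0109% of all genes were called higher and 0% lower, so the absence of members is near that background. Without adjustment, 3 members had a p under 0.05, of which 1 was higher and 2 lower at day 7, where 8.43% of all genes were higher and 12.7% lower by that rule. The log2 changes of the 43 members were positive for 33 and negative for 10, with a median of 0.15 against 0.07 over all genes tested. DESeq2 called 1 member higher, Gbp4, and none lower, against 2.71% and 5.99% of all genes. No member separated the groups without overlap, as 0.988% of all genes did upward and 0.982% downward. All 10 genes of dividing cells had a negative log2 change in this comparison, with a median of -1.82. Their mean log2(CPM + 1) was 5.75 and 6.88 in controls 1 and 2, but 4.18, 3.90 and 3.61 in controls 3 to 5. At day 7 it was 3.14 to 4.63, so the high values of controls 1 and 2 weigh on that median. The part of these genes in the members' values was not tested.

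For day 14 against control, edgeR called 1.33% of all genes higher and 1.8% lower, and again no member. At an unadjusted p under 0.05 there were 4 members lower and 2 higher, against 11.8% and 10.5% of all genes. The median log2 change of the set was -0.18, against 0.12 over all genes, and 31 of the 43 values were negative. That median moved to 0.00 when libraries were scaled by their totals, which raised the median of all genes to 0.32, and to 0.02 with the share of reads outside gene models as a covariate. DESeq2 called Mx1 higher and Trim25, Ifi27l2a and Bst2 lower, against 4.62% and 3.79% of all genes. Mx1 was the 1 member whose day 14 libraries all lay above all controls, as did 5.24% of all genes, while no member lay wholly below, as did 2.85%. A list of 8 tested T cell genes was negative throughout in this comparison, with a median of -0.31. It held Cd8a and Cd8b1, genes of CD8 T cells, beside Cd3e, Cd3d, Cd3g, Cd4, Cd5 and Lck.

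Day 14 against day 7 gave the most one-sided picture, although edgeR called no member against 0.412% of all genes higher and 0.553% lower. The log2 change was negative for 38 members and positive for 5, with a median of -0.29 against 0.12 over all genes. Unadjusted, 12 members were lower and 2 higher at a p under 0.05, against 8.27% and 6.54% of all genes. In the same comparison 7 of the 8 genes of that T cell list, which includes Cd8a and Cd8b1, were negative. The median of the 8 was -0.38, and 4 had an unadjusted p under 0.05. Cd3e stood at 762 and 992 CPM in day 14 libraries 1 and 4 and at 1497 CPM in library 2. The 10 genes of dividing cells were all positive, with a median of 1.48. The part of either list in the members' values was not tested. Scaling by library totals gave a median of -0.15 for the members and 0.29 for all genes, and the covariate for reads outside gene models gave -0.24 and 0.01. DESeq2 called Gbp3 higher and Ifi27l2a lower, against 1.89% and 1.94% of all genes. The groups overlapped for every member, where 1.77% of all genes separated upward and 2.78% downward.

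ISG15 is a ubiquitin-like protein that is attached to other proteins during infection, and USP18 removes it and also dampens signalling at the receptor. Isg15 (chr4:156199424-156200818, GRCm38) stood at 23.7, 22.4, 29.7, 56.5 and 21.7 CPM in the controls. At day 7 it ranged from 19.0 to 32.6 CPM with a median of 22.1, and at day 14 it was 9.55, 50.9, 17.3 and 9.31 CPM. Control 4 and day 14 library 2 were far above their groups, and the other 3 day 14 libraries were below every other mouse. The log2 change of day 14 against control was -0.50 ± 0.41 (SE, edgeR adjusted p = 0.461), with a 95% interval from -1.36 to 0.36. Usp18 (chr6:121245906-121270917) stood at 15.1, 7.19, 14.4, 35.2 and 19.97 CPM in controls, at 17.5 to 29.5 CPM with a median of 21.5 at day 7, and at 11.5, 34.6, 15.5 and 9.31 CPM at day 14. The same libraries were highest, and the groups overlapped. Against control its log2 change was 0.33 ± 0.33 at day 7 (SE, edgeR adjusted p = 0.621) and -0.05 ± 0.38 at day 14 (adjusted p = 0.938).

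IFIT proteins bind viral RNA that lacks the host's cap and block its translation. The 3 genes lie together on chromosome 19 between 34550694 and 34650009. Ifit1 stood at 22.4, 16, 31.4, 68.9 and 33.9 CPM in controls, at 25.9 to 55.7 CPM with a median of 40.7 at day 7, and at 18.2, 54.8, 21.2 and 13.3 CPM at day 14. Apart from library 2, day 14 lay below every day 7 library, and control 4 was the highest of all. Its log2 change for day 14 against day 7 was -0.54 ± 0.37 (SE, edgeR adjusted p = 0.533). Ifit2 stood at 52.7, 46.6, 71.2, 83.9 and 76.7 CPM in controls, 65.7 to 104 CPM with a median of 79.9 at day 7, and 50.2, 73.0, 69.1 and 42.1 CPM at day 14. Here day 14 library 2 stood out much less, at 1.45 times the median of the other day 14 libraries. The log2 change for day 14 against day 7 was -0.50 ± 0.18 (SE, edgeR adjusted p = 0.186). Ifit3 was less abundant, at 12.1 ± 5.93, 14.9 ± 4.37 and 13.2 ± 5.17 CPM (SD, n = 5, 7 and 4), and reads could be shared with its near copy Ifit3b.

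The OAS enzymes make the short nucleotide chain that activates RNase L, while the OAS-like proteins act in RNA sensing. Oas2, Oas3 and Oas1a lie in 1 cluster on chromosome 5 (120730333 to 120907521) and Oasl1 and Oasl2 in another (114896936 to 114937915). Oas2 stood at 29.4, 29.5, 46.0, 62.1 and 32.8 CPM in controls, 34.5 to 65.5 CPM with a median of 49.4 at day 7, and 19.4, 57.0, 28.5 and 15.2 CPM at day 14. Oas3 stood at 37.3, 39.3, 37.7, 50.6 and 32.3 CPM in controls, 30.2 to 54.2 CPM with a median of 38.8 at day 7, and 21.5, 54.2, 28.6 and 18.9 CPM at day 14. For both genes day 14 libraries 1, 3 and 4 were below every other mouse, while library 2 was in the upper part of the day 7 range for Oas2 and level with its highest library for Oas3. Log2 changes for day 14 against day 7 were -0.72 ± 0.31 (SE) for Oas2 and -0.43 ± 0.25 for Oas3, with edgeR adjusted p-values of 0.274 and 0.439. Oasl1 had the widest spread at day 14, with a coefficient of variation of 92.3% from 8.0, 30.1, 8.41 and 4.35 CPM. Oasl2 stood at 30.8 ± 6.10 CPM in controls and 23.1 ± 14.2 CPM at day 14 (SD, n = 5 and 4). Oas1a was near the lower end of the set, at 4.95 ± 1.57 CPM in controls, and its reads could be shared with Oas1g.

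Mx proteins are dynamin-like GTPases that trap viral particles, and Mx1 is known to be defective in C57BL/6 and most other laboratory strains. Mx1 (chr16:97447035-97462907) stood at 7.57, 10.2, 4.42, 10.2 and 3.44 CPM in controls, 6.32 to 11.5 CPM with a median of 9.97 at day 7, and 10.5, 22.2, 14.5 and 12.8 CPM at day 14. All 4 day 14 libraries were above all 5 controls. The log2 change was 1.07 ± 0.31 (SE, edgeR adjusted p = 0.0611) against control and 0.69 ± 0.28 (adjusted p = 0.257) against day 7. DESeq2 gave 1.13 for Mx1 against control with an adjusted p of 0.01. Without control 4 edgeR gave 1.32 for Mx1 (adjusted p = 0.0395). Without day 14 library 2, the adjusted p for Mx1 was 0.117. Mx2 (chr16:97535308-97560900) did not share this order, at 5.84, 6.69, 7.33, 10.3 and 6.10 CPM in controls, 5.03 to 16.5 CPM with a median of 8.48 at day 7, and 7.36, 11.7, 5.76 and 2.48 CPM at day 14. Its log2 change was -0.09 ± 0.36 (SE, edgeR adjusted p = 0.889) at day 14 against control.

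Cytosolic sensors detect viral nucleic acid: Ddx58 encodes RIG-I, Ifih1 encodes MDA5, Dhx58 a regulator of both, Zbp1 a sensor that triggers cell death, Eif2ak2 the kinase PKR that halts translation, and Trim25 a ubiquitin ligase of RIG-I. Ddx58 (chr4:40203773-40239828) stood at 128, 90.6, 147, 184 and 175 CPM in controls, 151 to 198 CPM with a median of 185 at day 7, and 121, 166, 135 and 93.8 CPM at day 14. Only library 2 of day 14 reached the day 7 range. The log2 change for day 14 against day 7 was -0.47 ± 0.17 (SE, edgeR adjusted p = 0.189). Zbp1 (chr2:173206612-173218923) stood at 111, 104, 145, 190 and 154 CPM in controls, 136 to 190 CPM with a median of 157 at day 7, and 103, 234, 140 and 81.2 CPM at day 14. Day 14 library 2 held the highest level of all mice and library 4 the lowest, so the day 14 group spanned both others. Trim25 (chr11:88999376-89020293), named after its values were seen, stood at 148, 157, 158, 159 and 130 CPM in controls, 120 to 150 CPM with a median of 134 at day 7, and 91.0, 152, 93.3 and 104 CPM at day 14. Libraries 1, 3 and 4 of day 14 were below every other mouse, and control 4 did not stand out. Its log2 change was -0.45 ± 0.13 (SE, edgeR adjusted p = 0.0616) for day 14 against control and -0.28 ± 0.12 (adjusted p = 0.281) against day 7. Ifih1, Dhx58 and Eif2ak2 had log2 changes from -0.22 to -0.04 for day 14 against control.

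Among the membrane and nucleotide effectors, BST2 (tetherin) holds budding virus at the cell surface and IFI27L2A is a small mitochondrial or membrane protein. Ifi27l2a (chr12:103442167-103443680) was the most abundant member per length, at 261 CPM per kb of exon over the 16 libraries. It stood at 111, 75.0, 154, 180 and 131 CPM in controls, 105 to 238 CPM with a median of 118 at day 7, and 43.1, 118, 65.8 and 61.1 CPM at day 14. Libraries 1, 3 and 4 of day 14 were below all others, and library 2 was at the day 7 median. The log2 change was -0.86 ± 0.29 (SE, edgeR adjusted p = 0.1) for day 14 against control and -0.98 ± 0.28 (adjusted p = 0.0909) against day 7. Bst2 (chr8:71534255-71537456) stood at 109, 129, 81.6, 128 and 62.5 CPM in controls, 47.0 to 80.6 CPM with a median of 75.9 at day 7, and 32.8, 106, 43.6 and 55.3 CPM at day 14. Day 14 library 2 was far above the other 3, and both transplanted groups overlapped the controls. Its log2 change was -0.52 ± 0.24 (SE, edgeR adjusted p = 0.206) at day 7 and -0.78 ± 0.28 (adjusted p = 0.114) at day 14 against control.

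Bst2 also marks plasmacytoid dendritic cells, which are known to make large amounts of type I interferon. The other 9 genes of that marker list summed to 109 to 148 CPM in controls, 102 to 143 CPM at day 7 and 97.6 to 113 CPM at day 14, with 126 CPM in control 4 and 101 CPM in day 14 library 2. Pacsin1 gave 46.3 to 113 CPM of these sums, more than any other of the 9 genes in every library except control 2, where Tcf4 was higher. Of the 9 genes of the list that were tested, Bst2 included, 7 had a negative log2 change at day 7 against control and 8 at day 14 against control, with medians of -0.52 and -0.78. The day 7 median is the value of Bst2 itself, so these medians are not separate from that gene. The part of these cells in the Bst2 values was not tested. The defining marker Siglech reached at most 2.13 CPM and was at 0 in control 5 and day 7 library 4. Rtp4, which encodes a receptor transport protein, had means of 36.6 ± 12.5, 42.1 ± 12.4 and 26.7 ± 17.6 CPM (SD, n = 5, 7 and 4). Rsad2 (viperin) and its neighbour Cmpk2, enzymes that make and supply a nucleotide that stops viral RNA synthesis, lie side by side on chromosome 12 and were low, at 10.2 ± 3.31 and 17.3 ± 6.97 CPM in controls and 8.38 ± 3.89 and 11.9 ± 5.62 CPM at day 14.

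The other regulators were the most abundant class. Sp100 (chr1:85649988-85709998), a component of nuclear bodies, stood at 641, 561, 864, 971 and 871 CPM in controls, 815 to 962 CPM with a median of 870 at day 7, and 563, 847, 720 and 584 CPM at day 14. The day 7 mice were tightly grouped, with a coefficient of variation of 5.8%, and only day 14 library 2 reached their range. Its log2 change for day 14 against day 7 was -0.37 ± 0.14 (SE, edgeR adjusted p = 0.226). Samd9l (chr6:3372257-3399572), a translation inhibitor, stood at 244, 201, 268, 377 and 267 CPM in controls, 283 to 399 CPM with a median of 363 at day 7, and 150, 377, 251 and 165 CPM at day 14. Control 4 and day 14 library 2 both lay within the day 7 range, and the remaining libraries of their groups below it. The log2 change for day 14 against day 7 was -0.54 ± 0.21 (SE, edgeR adjusted p = 0.218). The schlafen genes Slfn5 and Slfn8 stood at 346 and 372 CPM in control 4, their highest level in any mouse, and at 134 and 154 CPM in day 14 library 1. Reads of Slfn8 could be shared with its near copy Slfn9. Parp9, Dtx3l and Parp14, an ADP-ribosylation group encoded together on chromosome 16, had log2 changes of -0.12, 0.01 and -0.11 for day 14 against day 7, and Parp9 and Dtx3l overlap on opposite strands by 458 exon bases. Trim30a, Xaf1 and Ifi35 had log2 changes of -0.31, -0.32 and -0.28 in that comparison, and Ifi44, the least abundant member per length at 1.26 CPM per kb, 0.00.

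Guanylate-binding proteins (GBP) and immunity-related GTPases attack the vacuoles of intracellular pathogens, and interferon gamma is known to induce them as well. Gbp4 (chr5:105115767-105139586) stood at 142, 117, 185, 212 and 222 CPM in controls, 209 to 250 CPM with a median of 240 at day 7, and 154, 238, 197 and 173 CPM at day 14. Controls 1, 2 and 3 were below every day 7 library. For day 7 against control the log2 change of Gbp4 was 0.41 ± 0.14 (SE), with an edgeR adjusted p of 0.109. DESeq2 gave 0.42 for Gbp4 with an adjusted p of 0.0422. Gbp7 (chr3:142530342-142550149) stood at 156, 148, 168, 225 and 192 CPM in controls, 181 to 217 CPM with a median of 197 at day 7, and 140, 238, 216 and 172 CPM at day 14, with log2 changes of 0.14 ± 0.12 and 0.10 ± 0.14 (SE) against control. Neither group stood apart from the controls for this gene.

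Gbp3 (chr3:142560026-142573209), named after its values were seen, did not follow the set. It stood at 38.7, 40.2, 22.2, 24.7 and 25 CPM in controls, 20.5 to 25.8 CPM with a median of 22 at day 7, and 22.3, 44.1, 39.5 and 50.9 CPM at day 14. Day 14 libraries 2, 3 and 4 and controls 1 and 2 were high, while day 14 library 1, controls 3 to 5 and all day 7 libraries were low. The log2 change for day 14 against day 7 was 0.78 ± 0.20 (SE, edgeR adjusted p = 0.0637). DESeq2 gave 0.80 for Gbp3 with an adjusted p of 0.0038. The mean log2(CPM + 1) of 10 genes of dividing cells was 5.75 and 6.88 in controls 1 and 2 and 5.27, 4.84 and 6.07 in day 14 libraries 2, 3 and 4, against 3.14 to 4.63 in the other 11, and its part in the Gbp3 values was not tested. Iigp1, a GTPase also named after its values were seen, stood at 24, 23.8, 22, 48.6 and 33.4 CPM in controls, 29.1 to 47.7 CPM with a median of 37.4 at day 7, and 24.9, 76.7, 37.1 and 47.0 CPM at day 14. Its highest level was in day 14 library 2, and the groups overlapped. The log2 change for day 14 against control was 0.61 ± 0.27 (SE, edgeR adjusted p = 0.195). Gbp2, Gbp6, Igtp, Irgm1 and Irgm2 had log2 changes of -0.49 to -0.16 for day 14 against day 7, and Gbp6 reads could be shared with its near copy Gbp10.

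**Figure D3:**
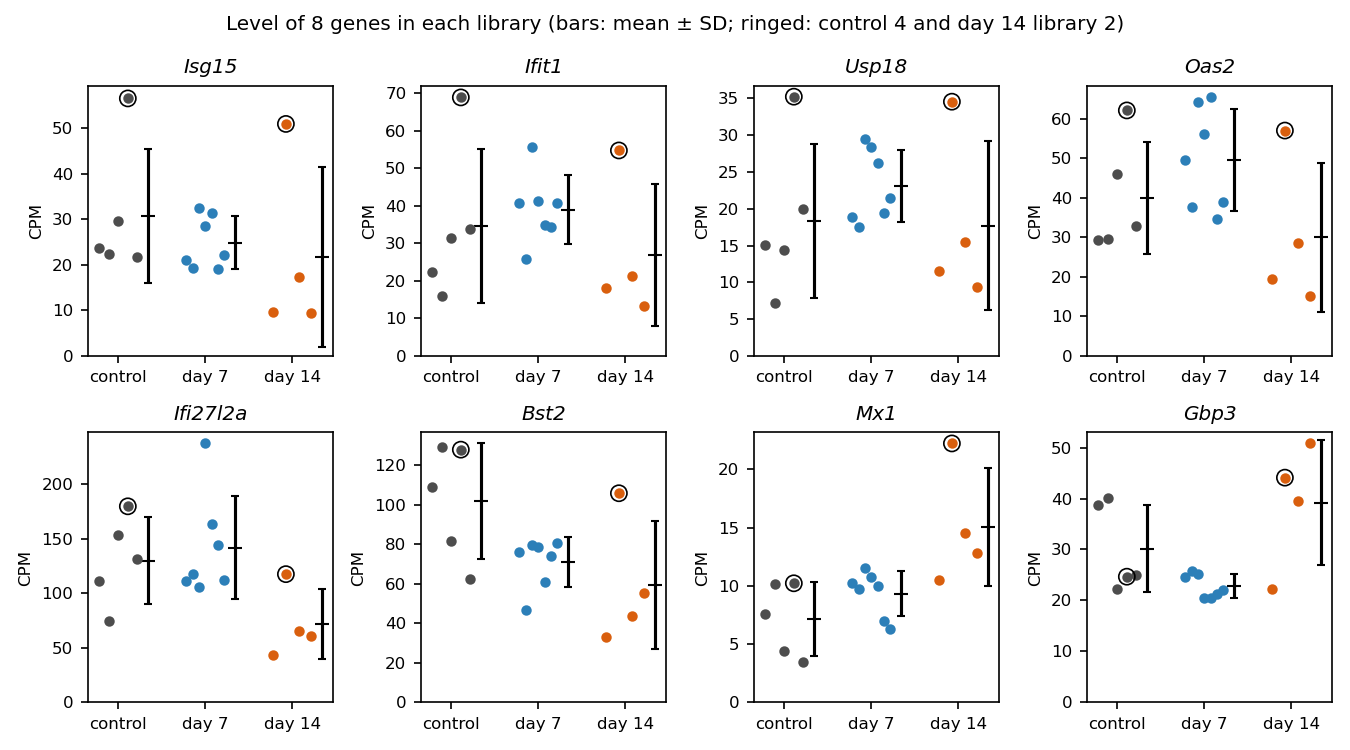
TMM-scaled CPM of 8 genes in each library (points) by group, with mean ± SD as bars and control 4 and day 14 library 2 ringed. For Isg15, Ifit1 and Usp18 the ringed libraries are the highest of their groups, at 56.5 and 50.9 CPM for Isg15, while for Gbp3 they are not.

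Control library 4 and day 14 library 2 were singled out beforehand as high, so what follows describes the size and make-up of that response and carries no test. In control 4, 36 of the 43 genes (83.7%) were higher than in any other control, against 14.7% of all genes tested. The exceptions were Gbp3, Eif2ak2, Ifih1, Rsad2, Gbp4, Bst2 and Cmpk2. The ratio to the median of the other controls had a median of 1.47 over the set and was highest for Ifi44 at 2.70, Ifit1 at 2.56 and Isg15 at 2.45. In day 14 library 2, 42 of the 43 genes (97.7%) were higher than in any other day 14 library, against 26.1% of all genes, with Gbp3 as the exception. The median ratio there was 1.97, and the highest values were 5.33 for Isg15, 3.77 for Oasl1 and 3.22 for Ifi44.

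By role, the response was largest for Isg15 and Usp18, with a median ratio of 2.42 in control 4 and 4.17 in day 14 library 2. The IFIT genes followed in control 4, at 2.32, and the OAS family in day 14 library 2, at 2.73. The nucleic acid sensors had the smallest ratios in both, at 1.18 and 1.57. Across the 43 genes the differences of these libraries from their own groups correlated with a Pearson r of 0.658, against 0.0791 across all 18430 genes, where genes are not independent replicates. A second list of 62 interferon-stimulated genes outside the set showed a weaker tilt, with 32 (51.6%) highest in control 4 and 43 (69.4%) highest in day 14 library 2.

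**Figure D4:**
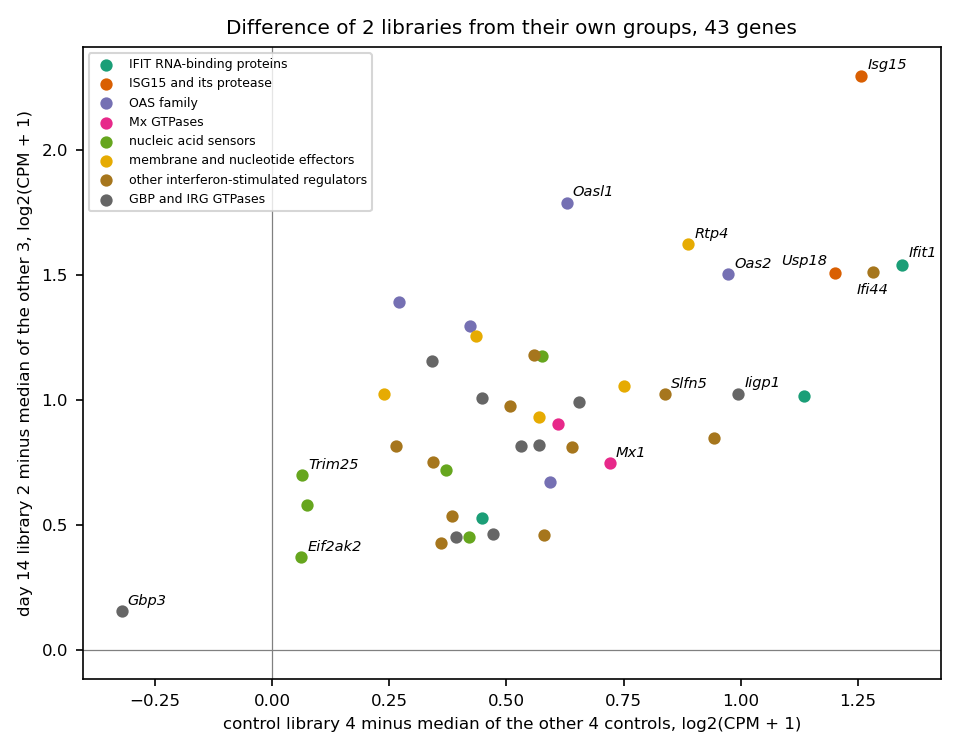
Difference in log2(CPM + 1) of control 4 from the median of the other 4 controls (horizontal) and of day 14 library 2 from the median of the other 3 (vertical), 1 point per gene, coloured by role. Of the 43 genes, 42 lie above 0 on both axes, Isg15 and Ifit1 lie far from the origin, and Gbp3 lies below 0 in control 4.

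Among the day 14 libraries, library 2 also had the lowest share of reads outside gene models, 54.4% against 62.3% to 69.8%, and its TMM factor was 0.979 against 1.10 to 1.18. Control 4, at 51.4%, was within the control range for that share. Its TMM factor of 0.923 was the lowest of the 16 libraries, against 0.936 to 0.985 in the other controls. Day 7 had no such outlying mouse. Libraries 3 and 4 were the highest of the group for 17 genes each (39.5%), against 26.6% and 13.4% of all genes. Library 6 was the lowest for 19 (44.2%), against 11.8% of all genes. These 3 libraries had median differences of 0.26, 0.22 and -0.27 on the log2(CPM + 1) scale from the rest of the group. At the low end, day 14 library 1 was the lowest of its group for 24 genes and library 4 for 17, against 28.1% and 20.6% of all genes. Control 2 was the lowest control for 24 genes (55.8%), against 19.0% of all genes, with a median difference of -0.38 from the other controls.

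When day 14 library 2 was left out, the day 14 group lay lower and some members passed. Since that library was chosen for its level of these same genes, its removal is a description of what it contributes and not separate evidence of a fall. Against day 7, 12 members passed as lower with edgeR, against 1.42% of all genes, and the median log2 change of the set was -0.59. Those 12 were Trim25, Ifi27l2a, Samd9l, Gbp6, Irgm1, Oas2, Rtp4, Slfn5, Oasl1, Oasl2, Oas3 and Ifih1. The largest sizes were -1.46 for Oasl1, -1.33 for Ifi27l2a, -1.24 for Oas2 and -1.22 for Rtp4, where the adjusted p was 0.0357, 0.0221, 0.0303 and 0.0309. Compared with controls, 9 members passed as lower, against 5.14% of all genes, with a median of -0.41. They were Trim25, Bst2, Oasl1, Ifi27l2a, Isg15, Oasl2, Oas3, Rtp4 and Irgm1, led by Oasl1 at -1.65 and Isg15 at -1.35 (adjusted p = 0.013 and 0.0201).

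With control 4 left out as well, 15 members were lower at day 14 than at day 7 and 6 than in controls, against 1.32% and 4.1% of all genes. The 6 were Trim25, Bst2, Oasl1, Isg15, Ifi27l2a and Oasl2. In the fit with the share of reads outside gene models as a covariate, no member passed in any comparison. Few genes of any kind did so there: 0% at day 7 against control, 0.00543% higher and 0% lower at day 14 against control, and 0.212% higher and 0.25% lower at day 14 against day 7. A covariate for Y-linked transcripts left the day 14 against control count at 0, where 1.5% of all genes were higher and 2.56% lower. Against day 7 it gave Gbp3 higher and Ifit2, Ddx58 and Ifi27l2a lower, against 2.94% and 2.49% of all genes.

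**Figure D5:**
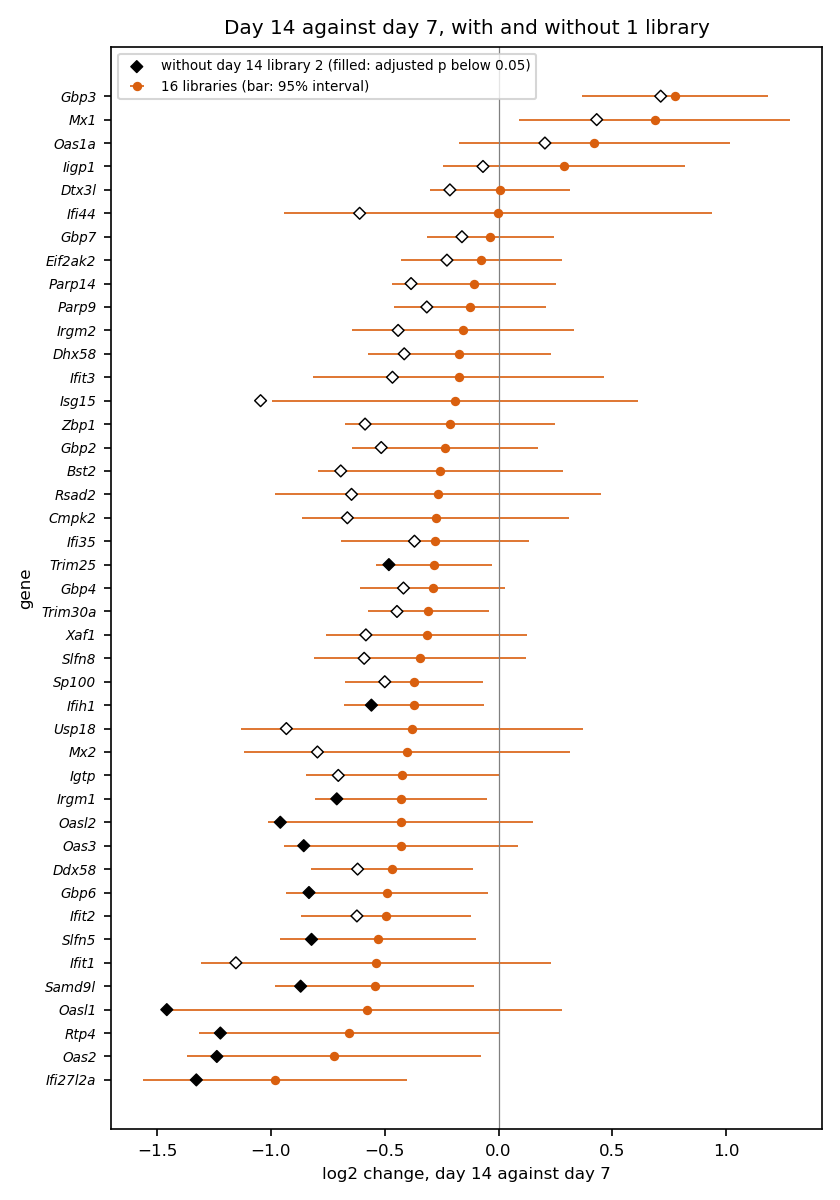
Log2 change of each of the 43 genes for day 14 against day 7, sorted, with all 16 libraries (circles, bars show 95% intervals) and without day 14 library 2 (diamonds, filled where the edgeR adjusted p is under 0.05). With all libraries 38 of 43 values lie below 0 and none passes, and without that library 12 pass as lower.

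Most members moved together across these mice. Over the 16 libraries, the Pearson r of log2(CPM + 1) between 2 members had a median of 0.642 over 903 pairs, and 94.0% of the pairs were positive. The points share library, depth and scaling, and 2 of the libraries had been singled out as high for these same genes. Part of the likeness can come from that choice, and no value for pairs of other genes is given, so these values are descriptions. The OAS genes were the closest class, with a median r of 0.857, while Mx1 and Mx2 had 0.218. Rtp4 (r = 0.95), Oas2 (0.93), Oas3 (0.91), Zbp1 (0.91) and Slfn5 (0.91) followed the mean of the other members most closely. The loosest were Eif2ak2 (0.43), Oas1a (0.39), Mx1 (0.21) and Gbp3 (-0.27). Without the 2 libraries singled out as high, this r was 0.95, 0.95, 0.90, 0.88 and 0.91 for Rtp4, Oas2, Oas3, Zbp1 and Slfn5. For Eif2ak2, Oas1a, Mx1 and Gbp3 it was 0.36, 0.02, -0.08 and -0.54 over these 14 libraries.

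Upstream of the set, interferon transcripts were close to absent. Of 20 type I and type III interferon genes 18 were in the table, none passed the filter, and the highest level in any library was 1.20 CPM, for Ifna11. The receptor chains were present throughout. Over controls, day 7 and day 14, Ifnar1 had means of 177 ± 18.8, 197 ± 13.3 and 165 ± 13.4 CPM (SD, n = 5, 7 and 4), and Ifnar2 of 108 ± 7.59, 100.4 ± 7.70 and 112 ± 17.7 CPM. Neither passed in any comparison with edgeR. Of the 6 receptor genes 1 passed with edgeR: Ifngr2, a chain of the interferon gamma receptor, fell at day 14 against control by 1.20 ± 0.23 on the log2 scale (SE, edgeR adjusted p = 0.0135), from 99.8 ± 38.7 to 43.5 ± 7.69 CPM, and the groups did not overlap. Of all genes, edgeR called 1.8% lower there, and 2.85% lay wholly below the controls. DESeq2 called Ifngr2 in this comparison too, where it called 3.79% of all genes lower. It called both Ifngr1 and Ifngr2 lower at day 7 than in controls, against 5.99% of all genes.

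None of the 6 genes of the JAK-STAT relay passed in any comparison with edgeR, where 2, 2 and 3 had an unadjusted p under 0.05 at day 7 against control, day 14 against control and day 14 against day 7. Of all genes, 21.1%, 22.4% and 14.8% were below that p. DESeq2 and limma-voom each called 1, Irf9, lower in the last of these, against 1.94% and 0.559% of all genes. Stat2 stood at 46.7, 51.4, 63.4, 90.9 and 72.3 CPM in controls, 67.7 to 91.7 CPM at day 7, and 58.1, 108, 70.3 and 51.6 CPM at day 14, so the same mice were high as for the targets. Irf9 had means of 93.9 ± 12.3, 106 ± 7.90 and 72.0 ± 21.6 CPM over controls, day 7 and day 14 (SD, n = 5, 7 and 4), with a log2 change of -0.55 ± 0.14 (SE, edgeR adjusted p = 0.0638) for day 14 against day 7. Irf7, the regulator that amplifies interferon production, stood at 83.7, 80.3, 95, 113 and 91.2 CPM in controls, 71.1 to 126 CPM at day 7, and 54.8, 115, 55.3 and 37.4 CPM at day 14, where libraries 1, 3 and 4 were below all other mice.

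The edgeR calls that follow stand against 1.33% of all genes higher and 1.8% lower at day 14 against control. Against day 7 these shares were 0.412% and 0.553%. Among 6 interferon regulatory factors, Irf1, a factor induced by interferon gamma, fell from day 7 to day 14, with a log2 change of -0.70 ± 0.13 (SE, edgeR adjusted p = 0.02). It averaged 293 ± 30.8 CPM (SD, n = 7) and then 181 ± 49.9 CPM (n = 4). Of 12 negative regulators, Socs3, which blocks cytokine receptor signalling, rose at day 14 from 82.8 ± 19.4 CPM in controls and 71.2 ± 7.67 CPM at day 7 to 198 ± 58.4 CPM. Its log2 changes were 1.26 ± 0.18 and 1.47 ± 0.17 (SE, edgeR adjusted p = 0.0041 and 0.0003). Ptpn2, a phosphatase that acts on JAK and STAT proteins, fell at day 14 against control by 0.51 on the log2 scale (adjusted p = 0.0485). Of 12 upstream sensing genes none passed with edgeR, and 6, 1 and 1 had an unadjusted p under 0.05 in the 3 comparisons, to be read against the shares of all genes given above. DESeq2 called 3 of them, Tlr8, Tlr9 and Unc93b1, lower at day 7 than in controls, against 5.99% of all genes. The mean log2(CPM + 1) of the 12 was 4.54 and 4.73 in controls 1 and 2, which carried neutrophil transcripts. It was 4.24 to 4.33 in controls 3 to 5 and 4.03 to 4.26 at day 7. The part of other cells in these values was not tested. The second list of 62 tested interferon-stimulated genes had 1 gene called with edgeR, Ly6c1, a surface protein of T cells and monocytes. Ly6c1 was lower at day 14 than in controls (-0.89, edgeR adjusted p = 0.0241) and than at day 7 (-0.94, adjusted p = 0.0209). Of all genes, 1.8% and 0.553% were called lower there. DESeq2 called 4 of these 62 higher and 7 lower at day 7 against control, against 2.71% and 5.99% of all genes. It called 1 and 3 at day 14 against control, against 4.62% and 3.79%. For day 14 against day 7 it called 1 and 5, against 1.89% and 1.94%. Among 10 interferon gamma related genes, Icam1, an adhesion molecule, was higher at day 14 by 0.82 against control and 1.07 against day 7 (edgeR adjusted p = 0.0221 and 0.0038).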

How the data were processed

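The authors deposited raw read counts for each gene in 16 libraries. Tools named in the submitters' processing notes are HTSeq 0.6.1, cutadapt 1.8.1 and bcl2fastq 2.20.0.422, with mm10 as the build. The aligner, the annotation and the strand setting are not given in the sources used here, so reads of overlapping genes and near copies are uncertain. Libraries were made from total RNA with a NuGEN mouse kit, per the labels' protocols. The 5 closing lines that name no gene stayed out of library sizes and tests, and reads outside gene models made up 47.1% to 69.8% of a library. No 2 columns were identical.

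The main test was edgeR 4.0.16 in R 4.3.3, with TMM scaling, the filterByExpr filter by group and 1 quasi-likelihood model of the 3 groups. P-values were adjusted by Benjamini-Hochberg over 18430 genes, with a threshold of 0.05. The common biological coefficient of variation came to 54.5%. The SE of a log2 change is its absolute size over the square root of F. The test was tried on simulated counts. Levels per kb use exon unions of GENCODE's GRCm38 annotation. Members, gene lists and tests were chosen with earlier results of these data known. Genes shown in full are the 2 most abundant per role, plus those said to be named after their values were known. Alternatives were RLE scaling, library totals, other filters, DESeq2 1.42.0, limma-voom (limma 3.58.1) with and without quality weights, robust dispersion, 2 groups at a time, covariates, and leaving libraries out. The covariate for reads outside gene models was added after seeing the data. Groups hold different mice and the labels give no shared litter or day, so replicate numbers were not used in the model. Figures were drawn with Matplotlib 3.10.9. One item is not reported here.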

Additional observations from a re-analysis of the deposited data

Results flagged for a closer look

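Single libraries that lay far from the rest of their group were looked for with Dixon's criterion in 132 groups of values, and 9 met it, where chance marks about 1 in 20 groups. Control 4 and day 14 library 2 had been chosen as high, so their values here are no separate evidence. In control 4 they were the mean log2(CPM + 1) of the 43 genes, 6.16 against 5.64 in the next control, and Isg15, 56.5 against 29.7 CPM. In day 14 library 2 they were Oasl1 (30.1 against 8.41 CPM), Oasl2 (44.3 against 18.1 CPM), Cmpk2 (20.2 against 9.98 CPM) and Dhx58 (26.9 against 16.4 CPM). In day 7 library 3, Dhx58 stood at 30.0 CPM against 20.5 CPM in the next library and Mx2 at 16.5 against 9.05 CPM. In day 7 library 4, Irgm1 stood at 74.7 against 62.5 CPM. What sets these libraries apart was not tested.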

How the results depend on the processing

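Counts of members past the threshold were 0 in each comparison and direction with edgeR, and the following settings gave others. For day 7 against control, DESeq2 gave 1 higher, and leaving out single libraries 0 to 1 (1 without control 5, Gbp4). For day 14 against control, RLE scaling, library totals, the filter of CPM 1 in 4 libraries, DESeq2, limma-voom with and without quality weights, robust dispersion and leaving out controls 1 and 2 each gave 1 higher, Mx1, and single libraries 0 to 1 (1 without control 2 or 4). Lower counts there were 3 with DESeq2, 1 with limma-voom, 8 with quality weights, 6 without control 4 and day 14 library 2, 1 without controls 1 and 2, and 0 to 9 on leaving out single libraries (9 without day 14 library 2, 1 without control 2 or 5). For day 14 against day 7, RLE scaling, library totals, that filter, DESeq2, quality weights, robust dispersion, 2 groups only, leaving out controls 1 and 2 and the Y-linked covariate each gave 1 higher, Gbp3, and single libraries 0 to 1 (1 without day 14 library 1 or control 2, 3 or 4). Lower counts there were 1 with DESeq2, 17 with quality weights, 1 with 2 groups only, 15 without control 4 and day 14 library 2, 2 without controls 1 and 2, 3 with the Y-linked covariate, and 0 to 12 on leaving out single libraries (12 without day 14 library 2, 1 without control 2). Single members such as Mx1 or Gbp3 are to be read against the shares of all genes passing in these settings. For day 7 against control, 2.71% were higher with DESeq2 and 2.33% without control 5. For day 14 against control, 0.656% to 11.4% were higher and 2.52% to 9.09% lower. For day 14 against day 7, 0.219% to 8.23% were higher and 1.32% to 7.05% lower. The largest of these day 14 shares were all with quality weights. Single-gene values were followed for 16 members, the 2 most abundant per role, and for 3 added after their values were seen, Trim25, Gbp3 and Iigp1. The rest of the set is not covered by these counts. Over 1710 such values under 30 settings, 1585 kept direction and side of the threshold, 73 passed in addition and 52 changed sign.

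The sign changes among the members followed singly were as follows. For day 7 against control, leaving out controls 1 and 2 gave Ifit1 -0.20, Usp18 -0.0073, Zbp1 -0.013, Ifi27l2a -0.12 and Sp100 -0.038. Isg15 gave 0.027 without control 4 and day 14 library 2 and 0.083 with the covariate for reads outside gene models, and Oas3 -0.017 with the Y-linked covariate. For day 14 against control, the covariate for reads outside gene models gave Ifit1 0.014, Usp18 0.33, Zbp1 0.22, Sp100 0.021 and Samd9l 0.11. Library totals gave Ifit2 0.023, Usp18 0.12, Mx2 0.093, Ddx58 0.027 and Zbp1 0.16. Zbp1 gave 0.028 with RLE scaling, 0.0091 with the filter of CPM 1 in 4 libraries and 0.028 with DESeq2. Leaving out controls 1 and 2 gave Gbp4 -0.12 and Gbp7 -0.030. For day 14 against day 7, Gbp7 gave 0.11 with library totals and 0.028 with the covariate for reads outside gene models, and Iigp1 -0.068 without control 4 and day 14 library 2. On leaving out single libraries, values for day 7 against control ranged from -0.00423 to 0.62 for Ifit1, -0.41 to 0.072 for Isg15 and -0.048 to 0.29 for Ifi27l2a. Those for day 14 against control ranged from -0.98 to 0.071 for Ifit1, -0.60 to 0.34 for Usp18, -0.48 to 0.18 for Mx2, -0.39 to 0.17 for Zbp1, -0.011 to 0.22 for Gbp4 and -0.022 to 0.25 for Gbp7. Those for day 14 against day 7 ranged from -1.05 to 0.057 for Isg15, -0.16 to 0.072 for Gbp7 and -0.068 to 0.47 for Iigp1. The cause was not tested.

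With the replicate number as a replicate block no member passed in any comparison, the set's medians were 0.23, -0.17 and -0.39, and Usp18 gave 0.045 for day 14 against control. Same-numbered libraries correlated from -0.343 to 0.295 over 13 pairs, 3 of them above 0.1, and 1 of 14 libraries correlated best with its own number, so the numbers do not pair the mice. Day 14 had the fewest mice, and its libraries held 14731908 to 17067236 gene counts. Day 7 libraries held 14493764 to 24916411 and controls 21610411 to 27340070. The 95% interval for Isg15 at day 14 against control reached from -1.36 to 0.36.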

Other observations

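Outside the set, the genes whose log2(CPM + 1) followed the mean of the 43 members most closely over the 16 libraries were Tgtp2 (Pearson r = 0.876), Pyhin1 (0.864), Herc6 (0.862) and Mdn1 (0.862), among 9736 genes averaging 5 CPM or more. Stat2 was among the first 12, at 0.849. The median r was 0.135 over all of these genes and 0.593 over 54 other interferon-stimulated genes. Without control 4 and day 14 library 2, over 14 libraries, the leading genes were Pydc4 (0.946), Irf1 (0.917), Pttg1 (0.911) and Ifi27l1 (0.910), and the medians were 0.132 and 0.558. Mdn1, Pydc3 and BC094916 were among the first 12 in both. Tgtp2 is an interferon-inducible GTPase, Pyhin1 and Pydc4 belong to families of DNA-sensing proteins, and Herc6 is the main ligase for ISG15 in mice. The libraries share depth, scaling and cell make-up, so these values describe likeness only.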
